A study of Mus musculus with 6 samples.

Results

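The 7SK particle and the kinase it holds were described in N18 cells, a mouse neuroblastoma line, after silencing of Rest, named Nrsf in the labels, which encodes a zinc finger protein that represses neuronal genes in other tissues. The set held 7 genes of 19019 measured: Larp7, Hexim1, Hexim2, Mepce, Cdk9, Ccnt1 and Ccnt2, with 14 of the 44290 spots. All spots whose platform symbol is one of these genes were taken, and the values of several spots were averaged per gene. The set was chosen by the log ratios themselves: it was built around Larp7, which had the smallest adjusted p among the genes with large falls in the comparison of siRNA with scrambled cells. That comparison is the only contrast of the study. The members' ratios are therefore given as a description, with no test.

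Each of 6 two-channel Agilent whole mouse genome arrays carried RNA of N18 cells transfected with an siRNA against Nrsf beside RNA of N18 cells transfected with a scrambled siRNA. Arrays 1, 2 and 3 had the siRNA sample in Cy5, and arrays 4, 5 and 6 had it in Cy3. The design text speaks of independent measurements but does not say whether they came from separate transfections, so any p-value measures the spread between these samples, which may be technical. Both groups are the same line, and a ratio carries no level, so the markers of a neuroblastoma cell could not be checked for presence.

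P-TEFb, a kinase made of CDK9 and a T-type cyclin, phosphorylates RNA polymerase II and the factors that hold it paused near promoters, and so releases it into elongation. In the nucleus much of it is kept inactive by a small particle built on the noncoding 7SK RNA. LARP7 binds the 3′ end of that RNA and protects it, MEPCE caps its 5′ end, and HEXIM1 or HEXIM2, bound to the RNA, inhibits the kinase. Release of P-TEFb from the particle is a known control point for rapidly induced genes.

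Each value is the log2 of the siRNA signal over the scrambled signal. The log base is not stated. The lowest value of -3.75 would be a ratio of 5636 on a log10 scale, so log2, usual for array ratios, was taken, and a natural log would make every fold larger. The direction is likely from the labels rather than stated, and with the opposite numerator every "higher" and "lower" would be exchanged. Rest would then average higher in the cells given the siRNA against it. The siRNA target itself, Rest, averaged -0.35 ± 0.13 on the log2 scale (SD, n = 6) and was below 0 on 6 of 6 arrays (exact two-sided sign-flip permutation p = 0.0312, the smallest that 6 arrays allow). Its 3 spots averaged -0.05, -0.44 and -0.55, and the first was above 0 on arrays 1 and 4 (0.24 and 0.06). Array 1 stood apart: over genes it correlated at 0.29 to 0.37 with the other arrays, which correlated at 0.54 to 0.82 with each other. Values without it are given for the members that lie apart on it and for each list.

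The promoters of Larp7 and Hexim1 are shown because these genes had the largest mean falls of the set. RefSeq promoters (GRCm38.p6) were at hand for 5 of the 7 genes, and those of Hexim2 and Mepce were not used here. Each sequence runs 5′ to 3′ on the gene's strand from 250 bases before the transcription start to 10 bases after it. Capitals mark, on either strand, the cAMP response element TGACGTCA, the CCAAT box, the TATA-type letters TATAA, and the left part CAGCACC and right part GGACAG of the element that REST binds. The Larp7 promoter lies at chr3:127553340-127553599 on the minus strand and the Hexim1 promoter at chr11:103116075-103116334 on the plus strand.
Larp7: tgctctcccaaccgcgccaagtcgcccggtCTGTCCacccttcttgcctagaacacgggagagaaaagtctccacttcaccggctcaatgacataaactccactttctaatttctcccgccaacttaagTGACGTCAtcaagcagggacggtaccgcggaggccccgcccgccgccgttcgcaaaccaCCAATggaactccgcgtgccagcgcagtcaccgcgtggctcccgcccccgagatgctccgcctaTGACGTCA
Hexim1: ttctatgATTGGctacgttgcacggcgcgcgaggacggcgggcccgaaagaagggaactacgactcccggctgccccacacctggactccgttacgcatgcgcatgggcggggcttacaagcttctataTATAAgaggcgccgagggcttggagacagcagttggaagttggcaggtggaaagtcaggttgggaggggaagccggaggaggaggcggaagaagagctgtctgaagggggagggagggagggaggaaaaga

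The Larp7 promoter held the cAMP response element at 2 places, starting 121 bases before the start and at position 3 of the transcript. In the full window of 300 bases, 1.79% of 32851 mouse promoters held that element at least once and 0.0396% held it at least 2 times. The motifs were chosen with the promoters in view, so such shares are a description and not a test. Larp7 also had 1 CCAAT box (37.4% of promoters have any) and, on the other strand, 1 match to the right part GGACAG, which 22.2% of promoters hold. The left part CAGCACC (7.14% of promoters) was in none of the 5 member promoters. Hexim1 had a TATA-type match starting 121 bases before the start, which 24.9% of promoters hold, and a CCAAT box on the other strand. The motifs do not overlap each other in these windows. A match is a string of letters and not a measured site, and the arrays do not measure binding.

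Among the members that hold the 7SK RNA, Larp7 was at -1.03, -1.08, -1.08, -1.02, -1.06 and -0.9985 on arrays 1 to 6. These are near-equal values, all far below 0, with no overlap with any other member. Its mean log2 ratio was -1.04 ± 0.03 (SD, n = 6), or 48.5% of the scrambled level, the 8th lowest of the 19019 genes. With the opposite numerator it would be 2.06-fold higher and the 8th highest. The mean was -1.06 ± 0.03 on arrays 1 to 3 (siRNA in Cy5) and -1.03 ± 0.03 on arrays 4 to 6 (siRNA in Cy3) (SD, n = 3 each). Fewer transcripts per cell and fewer cells that hold them cannot be told apart in such bulk RNA. The 7SK RNA itself was not analysed here.

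The evenness of Larp7 is a property of the average and not of its spots. The first spot was at -1.52, -1.17, -1.19, -1.13, -1.12 and -0.95 on arrays 1 to 6, and the second at -0.53, -0.98, -0.97, -0.91, -1 and -1.05. Both were below 0 on every array, but on array 1 the first gave its lowest value and the second its highest. Each spot had an SD of 0.19, against 0.03 for their mean. Both are listed for the same transcript, and their means differed by 0.27, a gap that 9.72% of 4701 such pairs of spots exceeded (median gap 0.056).

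Mepce, the methyltransferase that caps 7SK RNA, was near 0. It was at -0.04, -0.10, -0.08, -0.10, -0.05 and -0.07 on arrays 1 to 6. The values were all below 0 and close together, with a mean log2 ratio of -0.07 ± 0.02 (SD, n = 6), or 95.2% of the scrambled level (1.05-fold higher with the opposite numerator). Its spots, both for the same transcript, averaged -0.03 and -0.11. The ratios of Larp7 and Mepce, the partners that bind the ends of the RNA, did not overlap. Larp7 was chosen for its large fall in this contrast, so nothing is read from this gap.

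**Figure D1:**
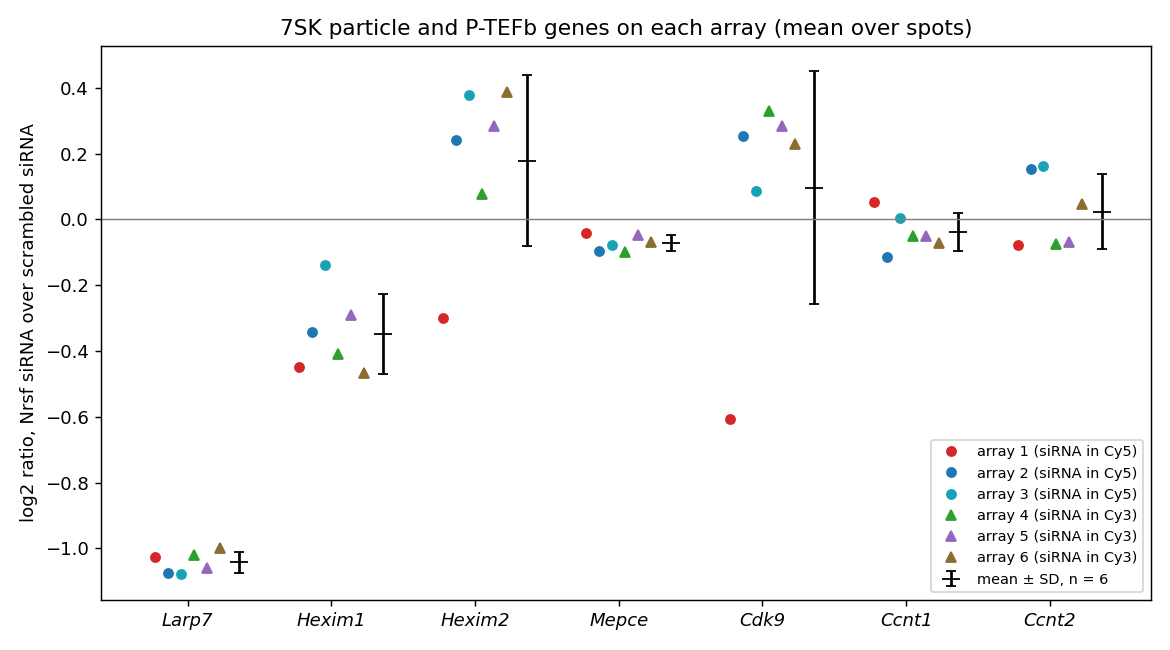
Log2 ratio of siRNA over scrambled (y axis) for each of the 7 genes (x axis), with a point per array, circles for the siRNA sample in Cy5 and triangles in Cy3, and the mean ± SD (n = 6) at the right of each gene. Larp7 lies between -1.08 and -0.9985, below all other members, and the array 1 points of Cdk9 (-0.61) and Hexim2 (-0.30) lie apart from the other arrays.

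Of the inhibitors, Hexim1 was lower and its paralogue Hexim2 was higher on most arrays. Hexim1 stood at -0.45, -0.34, -0.14, -0.41, -0.29 and -0.47 on arrays 1 to 6. All were below 0, between those of Larp7 and Mepce and overlapping neither. The mean log2 ratio was -0.35 ± 0.12 (SD, n = 6), or 78.5% of the scrambled level (1.27-fold higher with the opposite numerator), and 2.16% of genes lay further out on that side.

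The Hexim1 value is the average of spots that went apart. The first spot was at -0.85, -0.65, -0.41, -0.64, -0.62 and -0.89, and the second at -0.05, -0.04, 0.13, -0.18, 0.04 and -0.04, on arrays 1 to 6. The first was low on every array, the second lay on both sides of 0, and their ranges did not overlap. Their means were -0.68 ± 0.17 and -0.02 ± 0.10 (SD, n = 6), although both are listed for the same transcript. Only 1.51% of the 4701 pairs of spots had a larger gap than their 0.65. The files give no brightness, so whether a spot was near background was not tested.

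Hexim2 was at -0.30, 0.24, 0.38, 0.08, 0.28 and 0.39 on arrays 1 to 6. Array 1 lay below 0 and the other 5 above it. The mean log2 ratio was 0.18 ± 0.26 (SD, n = 6), and 0.27 ± 0.13 (SD, n = 5) without array 1. Its spots gave like values, at 0.21 and 0.14, and both were negative on array 1 alone, so the drop on that array was not that of a single spot. On arrays 2 to 6 the gene averages of Hexim1 and Hexim2, which can each inhibit P-TEFb, did not overlap. Over all 6 arrays they did, since Hexim2 on array 1 (-0.30) lay within the Hexim1 range of -0.47 to -0.14. The second Hexim1 spot reached 0.13 on array 3, above the Hexim2 average of 0.08 on array 4.

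Among the subunits of P-TEFb itself, Cdk9, the kinase, was measured by 1 spot, at -0.61, 0.25, 0.09, 0.33, 0.29 and 0.23 on arrays 1 to 6. Array 1 was low and the other arrays were above 0. The mean log2 ratio was 0.10 ± 0.35 (SD, n = 6) and 0.24 ± 0.09 (SD, n = 5) without array 1. The distance of array 1 from the mean of the others, -0.84, was exceeded in size by 0.534% of all genes. For Hexim2 it was -0.57, exceeded by 4.07%. For the average of Larp7 it was 0.02, but its spots went opposite ways on array 1, at -0.41 and 0.45 from their means over the others.

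The cyclins that activate CDK9 stayed near 0. Ccnt1, which encodes the more studied of them, was at 0.05, -0.11, 0.004, -0.05, -0.05 and -0.07 on arrays 1 to 6, with a mean of -0.04 ± 0.06 (SD, n = 6). Its spots, listed for different sequence records, averaged -0.10 and 0.03. Ccnt2 was at -0.08, 0.15, 0.16, -0.08, -0.07 and 0.05, with a mean of 0.02 ± 0.11 (SD, n = 6). Values of both cyclins lay on both sides of 0.

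The spots of Ccnt2, listed for 3 different sequence records, averaged -0.03, 0.11 and -0.02. The second was at -0.03, 0.38, 0.51, -0.10, -0.14 and 0.06 on arrays 1 to 6. It was high on arrays 2 and 3, where the siRNA sample was in Cy5, and near or below 0 on the others. The dye is a measure that the choice of the genes did not use. In limma no member had a dye difference past an adjusted p of 0.05 in the gene comparison, nor did any of the 19019 genes (0% called). An unadjusted dye p under 0.05 in limma was found for 1756 of the 19019 genes and 0 members. The unmoderated test called 0 genes. Of the 14 spots, 1 had an unadjusted dye p under 0.05, the second of Ccnt2 (unadjusted p = 0.0404 in limma). The same share over all spots was not counted, so nothing is read from this spot. Without array 1, dye calls were made for 626 genes (3.29%) and for 0 members.

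By mean log2 ratio the order was Larp7, Hexim1, Mepce, Ccnt1, Ccnt2, Cdk9 and Hexim2, from low to high. Larp7 and Hexim1 were separated by 0.53 between their nearest arrays, and Hexim1 and Mepce by 0.04. From Mepce on, each gene overlapped its neighbour in the order. Of the 7 genes, 2 (Larp7 and Hexim1, both lower) were past the threshold of an adjusted p of 0.05 in the limma gene comparison, where 15.0% of all genes were called (9.11% lower, 5.88% higher). On all 6 arrays, 3 of the 7 (Larp7, Hexim1 and Mepce) were below 0, as were 11.6% of all genes. At the level of spots it was 3 of 14, both spots of Larp7 and the first of Hexim1, against 11.1% of all spots. The contrast chose the set, so nothing is read from these counts. Without array 1, 5 were past the threshold, with Mepce also lower and Hexim2 and Cdk9 higher, against 25.9% of all genes.

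The 19018 other genes were ranked by the root mean square difference of their 6 ratios from those of Larp7. After RIKEN, clone-named and predicted genes were left out, the nearest were Trappc2l, Gtf2a2, Ccndbp1, Adss and Cox11. The differences were 0.095, 0.11, 0.13, 0.17 and 0.19. Trappc2l, of a vesicle tethering complex, averaged -0.99 ± 0.06, and Gtf2a2, which encodes part of TFIIA, averaged -1.04 ± 0.11. Ccndbp1, a cyclin D-binding protein gene, averaged -0.95 ± 0.07, Adss, of adenine nucleotide synthesis, -0.90 ± 0.08, and Cox11, needed to assemble cytochrome c oxidase, -1.0035 ± 0.20 (SD, n = 6). Of the other members, Hexim1 was nearest to Larp7, at 0.71. The ratios were not centred first, so among the members these differences follow the order of the mean ratios. Larp7 was chosen for its large fall, so nothing is read from which genes lie near it.

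The next question was how the genes around the particle behaved. The 7 functional lists that follow hold 82 measured genes, of which 31 were lower and 6 higher past the adjusted threshold in limma, or 45.1%, against 15.0% of all genes. The lists were not drawn at random. A ratio carries no level, so list genes could not be compared with other genes of like expression. Without array 2, 4, 5 or 6 the count of list genes called fell to 24, 21, 16 and 16. That of all genes fell to 1809, 1562, 1116 and 1214. Relative to the mean of the other arrays, 63 of the 82 were lower on array 1, or 76.8%, against 56.6% of all genes. The part that array 1 has in these counts is shown by leaving it out: 50 genes were then called, 38 lower and 12 higher, and of all genes 25.9% were (12.2% lower, 13.7% higher).

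Factors that pause and carry RNA polymerase II were lower more often than higher. Of 16 measured, 9 fell and 1 rose, with a median log2 ratio of -0.15, against 0.0025 over all genes. Supt6, a histone chaperone that travels with the polymerase, fell to 68.5% of the scrambled level (-0.54 ± 0.20, SD, n = 6, adjusted p = 0.00220 in limma), or 1.46-fold higher with the opposite numerator. Supt16, a subunit of the histone chaperone FACT, was at -0.53 ± 0.13 (adjusted p = 0.000697 in limma). Nelfa, of the negative elongation factor that P-TEFb acts on, was at -0.36 ± 0.19 (adjusted p = 0.0179 in limma), with -0.73 on array 1 and -0.28 on average over the others. The call of Nelfa was lost when array 4, 5 or 6 was left out. Nelfb, Nelfcd, Supt4a and Supt5, of the same list, were at -0.11, -0.12, -0.26 and -0.07 and were not called. On array 1 they were at -0.84, -0.44, -0.73 and -0.27, and over the others they averaged 0.04, -0.06, -0.17 and -0.03.

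Subunits of the PAF1 elongation complex did not all go one way. Cdc73 rose (0.13 ± 0.08, adjusted p = 0.0460 in limma), a call that was lost when any of arrays 2 to 6 was left out. Paf1, Ctr9, Leo1 and Rtf1 fell, with mean ratios of -0.14, -0.15, -0.18 and -0.29. Nelfe and Iws1 fell as well. Supt6 and Supt16 rest on 1 spot each. The 9 falls and 1 rise of the list became 10 and 2 without array 1. Without array 2, 3, 4, 5 or 6 the falls were 5, 6, 5, 3 and 3 and the rises 0.

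In the super elongation complex, which carries P-TEFb to promoters, 2 of 10 measured genes fell and 1 rose. Mllt3, a chromatin reader of the complex, was at -0.02 on array 1, and arrays 2 to 6 gave 0.31 to 0.37, with a mean of 0.28 ± 0.15 (SD, n = 6, adjusted p = 0.0134 in limma). Its 5 spots averaged from -0.01 to 0.57. Eaf1 and Eaf2, which bind the ELL elongation factors, fell (-0.18 ± 0.06 and -0.11 ± 0.10, adjusted p = 0.00672 and 0.0242 in limma). In each, 1 spot of the pair was at or above about 0 (-0.01 and 0.07) and the other was lower (-0.35 and -0.29). Without array 4, 5 or 6, 1 gene of the list was called, since Mllt3 and Eaf2 lost their calls, and Eaf2 also lost its call without array 2. Without array 1 the counts were again 2 and 1. The scaffolds Aff1 and Aff4 were at -0.01 and -0.03 and were not called.

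Of 6 La and La-related genes, the family of Larp7, 2 fell and none of them rose. Larp4, which binds poly(A) messenger RNA, was at -0.20 ± 0.09 (SD, n = 6, adjusted p = 0.00251 in limma), from 4 spots that averaged between -0.60 and -0.0017. Ssb, which encodes the La protein that binds the 3′ ends of new polymerase III transcripts, was at -0.13 ± 0.04 (adjusted p = 0.0117 in limma). Its spots averaged -0.26 and -0.0003. Without array 5 or 6, Ssb lost its call and 1 gene of the list fell, and without array 1, 2 fell. Larp1, Larp1b, Larp4b and Larp6 lay between -0.11 and 0.05 and were not called. The lowest mean of this list, that of Larp4, lay far above that of Larp7, which was chosen for its large fall.

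Of 14 genes for other 7SK-bound proteins and factors that release P-TEFb, 7 fell and 0 rose, with a median of -0.21. Rbm7, an RNA-binding protein known to free P-TEFb from 7SK after genotoxic stress in human cells, was at -0.27 ± 0.10 (SD, n = 6, adjusted p = 0.00107 in limma), with both its spots past the threshold. Hnrnpr, a ribonucleoprotein that binds 7SK RNA, was at -0.31 ± 0.24 (adjusted p = 0.0253 in limma), with -0.75 on array 1 and a mean of -0.22 over the others. Srsf2, a splicing factor found with 7SK at promoters, was at -0.25 ± 0.14 (adjusted p = 0.0255 in limma). The others that fell were Hnrnpa1, Trim28, Ddx21 and Srsf1, at -0.22, -0.23, -0.21 and -0.21. Hnrnpa2b1, another ribonucleoprotein of 7SK, had the largest mean of the list in size, at 0.35 ± 0.30 (SD, n = 6), above 0 on 5 of 6 arrays and not called. Without array 1 the list had 9 genes lower and 2 higher. Without array 4, 5 or 6, 5, 4 and 4 genes fell and 0 rose.

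LARP7 also binds U6 RNA of the spliceosome and takes part in its methylation. Of 13 genes for U6 binding and modification, 7 fell and 1 rose, with a median of -0.27. That median was -0.61 on array 1 and -0.13 for the means over the other arrays. Fbl, the methyltransferase fibrillarin, fell to 67.8% of the scrambled level (-0.56 ± 0.19, SD, n = 6, adjusted p = 0.00107 in limma), or 1.48-fold higher with the opposite numerator. Nop58, a core protein of the same small nucleolar particles, was at -0.42 ± 0.19 (adjusted p = 0.00634 in limma), and Snu13, another, fell as well, at -0.36. Nop56, the remaining core protein on the list, was at -0.005 and was not called.

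The Lsm ring that sits on the end of U6 RNA was split. Lsm5 fell (-0.40 ± 0.22, adjusted p = 0.0184 in limma), as did Lsm2, Lsm3 and Lsm8, at -0.14, -0.28 and -0.34. Lsm6 rose (0.37 ± 0.22, adjusted p = 0.0214 in limma), with -0.07 on array 1 and 0.38 to 0.53 on the others, and its 4 spots averaged between 0.27 and 0.44. Lsm4 and Lsm7 were at -0.08 and -0.03 and were not called. Without array 2, 4, 5 or 6, 4, 3, 3 and 3 genes of this list fell and 0 rose, and without array 1, 8 fell and 1 rose.

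Of 12 genes for other transcriptional kinases and their cyclins, 2 rose and 2 fell. Cdk11b, a kinase tied to splicing, was at -0.26 ± 0.08 (SD, n = 6, adjusted p = 0.00440 in limma), and Cdk19, of the Mediator kinase module, at -0.23 ± 0.09 (adjusted p = 0.00844 in limma). The spots of Cdk19 went apart, at -0.57 and 0.12, and so did those of Cdk11b, at -0.47 and -0.06. Ccnc, the cyclin of the Mediator kinases, was at 0.21 ± 0.14, and Ccnh, the cyclin of CDK7, at 0.18 ± 0.12 (adjusted p = 0.0297 and 0.0458 in limma). Without array 1, 4 genes of the list fell and 2 rose. Neither rise was called when any of arrays 2 to 6 was left out. Cdk7, Cdk12 and Cdk13, the kinases that act on the polymerase beside CDK9, were at -0.01, -0.06 and 0.04 and were not called.

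Genes known for rapid induction from paused polymerase, which depends on P-TEFb, did not move together. Past the threshold were 3 of the 11 measured, 1 of them higher and 2 lower, with a median of 0.02. Jun, an immediate early transcription factor, was at 0.01 on array 1, and arrays 2 to 6 gave 0.46 to 0.83, with a mean of 0.60 ± 0.32 (SD, n = 6, adjusted p = 0.0164 in limma) and 0.71 without array 1. Its call was lost without array 2, 3, 5 or 6. Egr1, another immediate early factor, was below 0 on 6 of 6 arrays, at -0.57 ± 0.26 (adjusted p = 0.00679 in limma). Mcl1, a short-lived survival protein gene, was at -0.53 ± 0.20 (adjusted p = 0.00520 in limma). Junb, related to Jun, was above 0 on 6 of 6 arrays, at 0.41 ± 0.34, and was not called. Fos and Ier2 were at 0.02 and -0.08 and were not called. Without array 1, 4 genes rose and 3 fell, and without array 2, 3, 5 or 6, 0 rose and 2, 3, 2 and 2 fell.

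**Figure D2:**
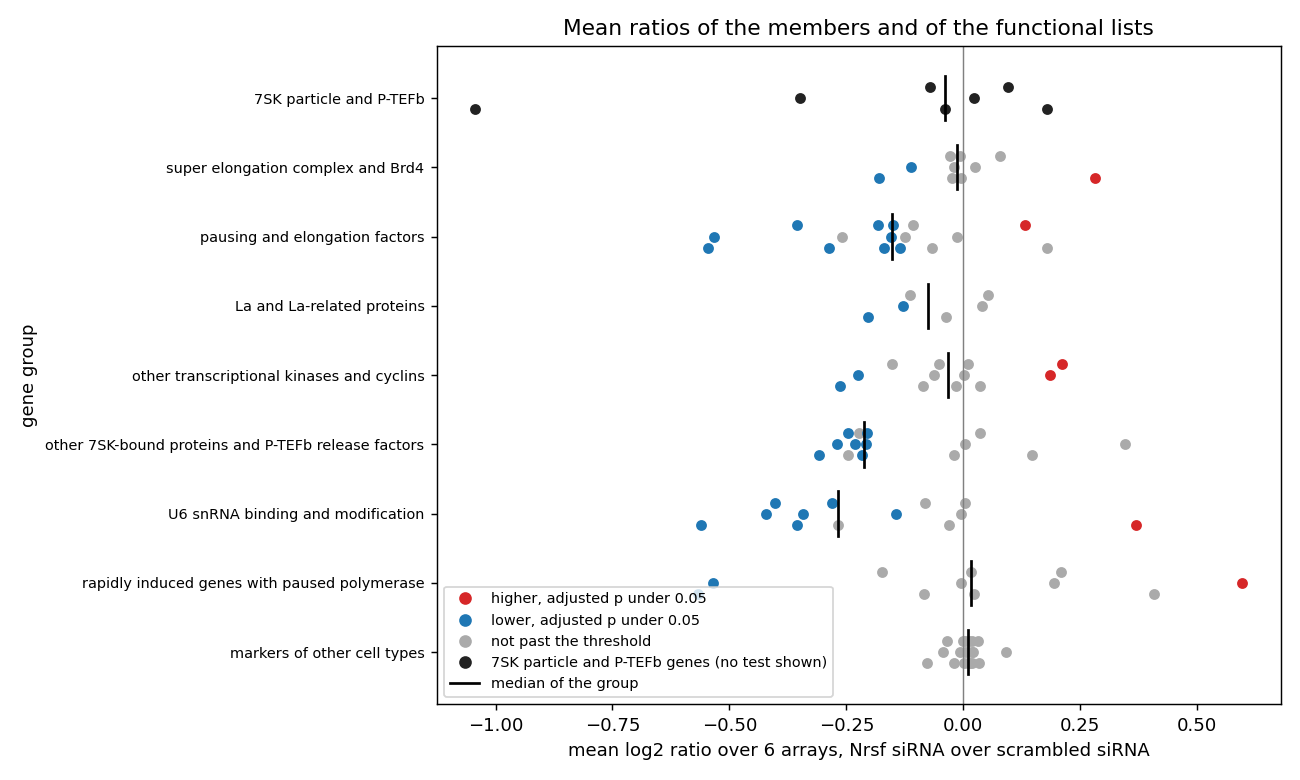
Mean log2 ratio over 6 arrays (x axis) for each gene, in a row for the 7SK particle and P-TEFb genes and a row for each list (y axis), with a bar at the median. Red and blue points passed the threshold as higher and lower, grey points did not, and the members are black because no test is shown for them. The rows for pausing and elongation, other 7SK-bound proteins and U6 RNA lie mostly left of 0, with medians of -0.15, -0.21 and -0.27.

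Markers of glial, mesenchymal, immune and endothelial cells were measured for 20 genes, and none of them was called in limma, with 2 at an unadjusted p under 0.05. The unmoderated test called 0 of them as well, and the first spot per gene 1. Their median was 0.0095 over all arrays and 0.026 on array 1. The smallest p belonged to Vim, at -0.08 ± 0.06 (SD, n = 6, adjusted p = 0.0853 in limma).

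**Figure D3:**
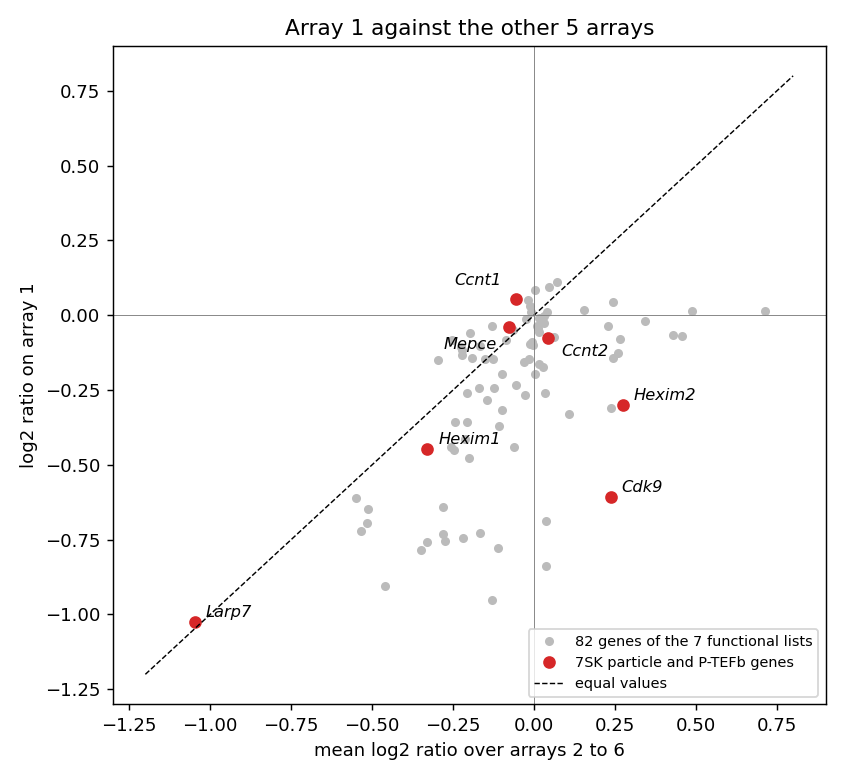
Log2 ratio on array 1 (y axis) against the mean log2 ratio over arrays 2 to 6 (x axis) for the 7 members (red, named) and the 82 genes of the functional lists (grey), with a dashed line where both are equal. The average of Larp7, whose spots went opposite ways on array 1, lies on the line. Cdk9 and Hexim2 lie far below the line, and 63 of the 82 list genes lie below it.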

How the data were processed

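A total of 6 two-channel arrays were measured, and all values come from the table of processed values. The log2 ratios were normalized, centred and turned to a common direction by the authors before they were deposited. Named genes correlated at 0.54 to 0.71 across the dye orientations of arrays 2 to 6. Spots with no entry in the gene list of the platform correlated at -0.67 to -0.64. Array medians lay between -0.004 and 0.005. Scanner, log base, background correction and the method of normalization: none of these is given in the sources used here. The signs were left as deposited and read as siRNA over scrambled.

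Spots were named through the platform table and symbols updated through gene identifiers (GRCm38.p6 table). Spots with a value on all 6 arrays (43530 of 44290, with 43689 to 43778 values per array) entered, and 31866 of them with 1 gene were averaged over 19019 genes. R 4.3.3 and limma 3.58.1 (lmFit, eBayes) fitted the mean ratio and a dye term, with 4 residual degrees of freedom and Benjamini-Hochberg adjustment over all genes or spots at 0.05. The fit was tested on simulated data. The number of arrays limits the precision.

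The members, lists and tests were chosen with earlier results of these data known, and the motifs with the promoters in view. Named were all members and Rest. Of each list, up to 3 called genes per direction with the largest change (or the gene with the smallest p) were named. The 5 genes nearest Larp7, without RIKEN, clone-named and predicted genes, were named as well. Other list genes were named after their values were seen. Alternatives changed the dye term, moderation, scaling, spot summary, missing-value filter and arrays used.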

Additional observations from a re-analysis of the deposited data

Results flagged for a closer look

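Values on 6 arrays were screened for an array whose gap to its nearest neighbour was, as a share of the range, above Dixon's 95% value for 6, which chance exceeds in about 1 of 20 groups. Of the 53 sets of values screened, 8 were marked, 7 of them for array 1. Cdk9 was at -0.608 on array 1, against 0.086 to 0.33 on the others. The second spot of Larp7 was at -0.53 on array 1, against -1.05 to -0.908. Of the list genes, Mllt3 was at -0.0194 on array 1 (0.313 to 0.374 on the others), Nelfa at -0.733 (-0.334 to -0.223), Lsm6 at -0.0698 (0.381 to 0.528), Nop58 at -0.784 (-0.444 to -0.267) and Mcl1 at -0.906 (-0.518 to -0.311). The third spot of Rest was at -0.726 on array 5, against -0.557 to -0.483 on the others.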

How the results depend on the processing

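The count of all genes called, 2852, was 870 with the unmoderated test, 9 on the Cy5 arrays alone and 1116 to 4921 without single arrays. The count of spots, 4812, was 771 with the unmoderated test, 0 on the Cy5 and 7924 on the Cy3 arrays alone, and 1918 to 8460 without single arrays. Dye calls, 0 in limma, were 10 after quantile normalization and 0 to 626 without single arrays. The count over the 7 functional lists, 37, was 10 with the unmoderated test, 0 on the Cy5 arrays alone and 16 to 50 without single arrays. In each case the highest count without a single array came without array 1. The cause of these changes was not tested. Of the 7SK and P-TEFb genes, 1 (Larp7) was called with the unmoderated test and on the Cy5 arrays alone. On the Cy3 arrays alone 4 were called (Larp7 and Hexim1 lower, Hexim2 and Cdk9 higher). In that fit 4262 of all 19019 genes were called, 2219 lower and 2043 higher. The same contrast chose the set, so nothing is read from these calls of its members.

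Rest was at -0.054 (adjusted p = 0.742) with its first spot in place of the mean and at -0.28 (adjusted p = 0.205) on the Cy5 arrays alone. Directions that changed were Cdk9 on the Cy5 arrays alone (-0.090), Ccnt2 with the median over spots (-0.0022), with its first spot (-0.025) and on the Cy3 arrays alone (-0.032), and, with the first spot, Mllt3 (-0.0068) and Eaf2 (0.066). Larp7 lay between -1.05 and -1.03 without single arrays, and Hexim1 between -0.39 and -0.31. Of the 23 named list genes that were called, 0 lost the call without array 1, 12 without array 5 or 6, 15 with the unmoderated test and 23 on the Cy5 arrays alone. Rescaling the arrays to a common spread or by quantiles removed 0 of these calls. Brightness over background cannot be judged from ratios, which limits the weight of any single spot.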
